A study of Mus musculus with 6 samples.

Results

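Cholesterol and fatty acid synthesis genes were examined in resident macrophages of the mouse peritoneal cavity, the large phagocytes that live in the fluid of that cavity. Of 35 listed genes, 33 were represented on the array by probe sets annotated to that gene alone, out of 18194 genes so represented, and the remaining listed genes, Acat2 and Soat1, were not analysed here. The data comprised 3 Gata6-KO arrays, from mice with a conditional (floxed) deletion of Gata6, a transcription factor gene, set against 3 Gata6-WT arrays from wild type mice. Each array held total RNA from a pool of 2 to 3 mice aged 7 weeks, sorted for high CD11b and low or absent MHC class II. The mice were sex-matched per the series design, while the labels name neither the Cre driver nor the strain nor the deleted part of Gata6. Pooled animals hide the spread between single mice, and in sorted bulk RNA fewer cells of a type and less RNA per cell cannot be told apart.

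Cells make cholesterol from acetyl-CoA. Acetyl units are joined and reduced to mevalonate, mevalonate is turned into isoprene units that are condensed to squalene, and squalene is closed into a ring and trimmed to cholesterol. The transcription factors SREBP1 and SREBP2, encoded by Srebf1 and Srebf2, turn these genes and those of fatty acid synthesis on when sterol in the endoplasmic reticulum is low. SCAP escorts SREBP to the Golgi for cleavage, and the INSIG proteins hold SCAP back when sterol is plentiful. Macrophages also receive much cholesterol ready-made, from engulfed cells and lipoproteins, which the lysosome releases through the acid lipase LIPA and the carriers NPC1 and NPC2.

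The arrays were of similar brightness, with median signals between 79.7 and 88.5, and correlated at 0.96 to 0.97 within a genotype and 0.93 to 0.95 between genotypes over tested probe sets. Of 3 Gata6 probe sets, 2 were lower in Gata6-KO and 1 was not, with Gata6-KO means at 42.5%, 54.9% and 99.04% of the Gata6-WT mean, and where they lie relative to the deleted part is not known here. The replicates numbered 1 carried male-type expression in both genotypes, with a signal of the inactive X transcript Xist of 101.7 and 112.8, against 11158 to 13749 on the other 4 arrays, so differences are given separately for the replicates 1 and the replicates 2 and 3 for the called genes and for several others. All 8 resident macrophage markers passed the signal filter, with Adgre1, Icam2 and Timd4 lower and Mertk higher in Gata6-KO, and their summed signal was 213351 to 230156 in Gata6-KO against 241376 to 288574 in Gata6-WT. Of 4 measured markers of monocytes and small peritoneal macrophages, Ccr2, Cd74 and H2-Ab1 were higher, and the summed signal of the list was 4057 to 11966 in Gata6-KO against 1635 to 1935 in Gata6-WT. None of the 4 was below the filter. Ccr2 made up 9632 of the 11966 on Gata6-KO replicate 1, and Irf4 was level, with means of 1006 in Gata6-KO and 901 in Gata6-WT (adjusted p = 0.66). The other H2-Ab1 probe sets did not pass (adjusted p = 0.10 and 0.24). The 2 measured adipocyte markers, Adipoq and Lep, were below the signal filter, with sums of 28.4 to 52.0 in Gata6-KO and 37.8 to 57.0 in Gata6-WT. In the 9 other marker lists 0 tested genes were higher and 1 was lower, the neutrophil gene S100a8. These lists covered lymphocytes, granulocytes, mast, dendritic, mesothelial and erythroid cells. Only 3 B cell, 2 mast cell, 2 neutrophil, 1 dendritic cell and 1 mesothelial gene were tested. All measured T cell, NK cell, eosinophil and erythroid markers were below the filter, so no call was possible for them. The summed signal of 4 neutrophil markers was 390 to 792 in Gata6-KO against 955 to 1613 in Gata6-WT. Most of that sum was S100a8, with means of 488 in Gata6-KO and 1111 in Gata6-WT. Ngp was level at 84.0 and 89.0, and S100a9 and Camp, below the filter, had 17.9 and 27.0 in Gata6-KO against 4.1 and 20.5 in Gata6-WT. The summed signal of 4 mast cell markers was 236 to 383 in Gata6-KO against 472 to 596 in Gata6-WT, with 2 of them below the filter. The part of these cell types and of the monocyte markers in the results below was not tested.

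Promoter windows of 300 bases, from 250 before to 50 after the annotated start, were found in RefSeq (GRCm38.p6) for 27 of the 35 listed genes. Those of Idi1, Sc5d and Fasn are shown as examples of genes that fell in Gata6-KO, and that of Insig1 as an example of a gene that rose. The window of Hmgcs1 is shown because it held the 1 match among the members to a sterol regulatory element, the sequence SREBP binds. Windows were also found for Acaca, which fell, and Lipa, which rose, and are not shown. Capitals mark the motifs searched on both strands. The sterol regulatory element was searched as TCACNCCAC, and the box bound by the factor NF-Y was searched as CCAAT. The E-box, bound by helix-loop-helix factors, was searched as CACGTG, which reads alike on both strands and was counted once. The site bound by factors of the Gata6 family was searched as AGATAA. In the windows shown, matches of different motifs did not overlap, and in Fasn a pair of CCAAT matches on opposite strands overlapped each other.
Idi1 (chr13:8885356-8885655, plus strand): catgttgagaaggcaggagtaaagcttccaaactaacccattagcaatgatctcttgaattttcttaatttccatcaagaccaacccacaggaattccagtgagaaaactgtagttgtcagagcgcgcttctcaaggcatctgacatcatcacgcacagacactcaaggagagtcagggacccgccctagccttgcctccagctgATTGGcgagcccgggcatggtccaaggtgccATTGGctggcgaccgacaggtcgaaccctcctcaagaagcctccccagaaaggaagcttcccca
Sc5d (chr9:42264251-42264550, minus strand): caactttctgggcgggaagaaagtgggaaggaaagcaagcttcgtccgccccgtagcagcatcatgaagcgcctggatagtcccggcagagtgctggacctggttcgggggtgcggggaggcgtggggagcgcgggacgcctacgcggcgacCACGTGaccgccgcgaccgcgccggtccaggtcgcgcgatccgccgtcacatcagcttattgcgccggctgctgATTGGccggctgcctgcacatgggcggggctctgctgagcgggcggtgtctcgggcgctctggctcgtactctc
Fasn (chr11:120824498-120824797, minus strand): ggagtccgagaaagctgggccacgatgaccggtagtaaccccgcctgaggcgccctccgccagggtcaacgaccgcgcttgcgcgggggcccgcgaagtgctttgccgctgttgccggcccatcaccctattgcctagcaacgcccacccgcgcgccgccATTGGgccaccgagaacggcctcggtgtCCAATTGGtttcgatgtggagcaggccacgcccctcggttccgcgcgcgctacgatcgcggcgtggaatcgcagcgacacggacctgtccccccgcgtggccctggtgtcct
Hmgcs1 (chr13:119690101-119690400, plus strand): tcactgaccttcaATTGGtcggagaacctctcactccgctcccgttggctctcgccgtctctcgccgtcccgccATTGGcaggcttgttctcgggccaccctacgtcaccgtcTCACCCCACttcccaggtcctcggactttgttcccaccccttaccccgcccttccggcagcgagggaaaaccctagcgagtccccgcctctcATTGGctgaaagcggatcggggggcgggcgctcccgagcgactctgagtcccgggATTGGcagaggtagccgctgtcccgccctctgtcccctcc
Insig1 (chr5:28071162-28071461, plus strand): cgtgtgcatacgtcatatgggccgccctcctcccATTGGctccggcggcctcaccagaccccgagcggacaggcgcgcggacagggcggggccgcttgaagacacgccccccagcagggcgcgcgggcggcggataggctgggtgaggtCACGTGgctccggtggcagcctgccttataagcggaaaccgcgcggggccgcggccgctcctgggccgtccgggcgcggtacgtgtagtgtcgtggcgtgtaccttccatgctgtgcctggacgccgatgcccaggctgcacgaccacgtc

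The CCAAT box was the motif the members shared. At least 1 window held it for 14 of 15 genes of the path from mevalonate to cholesterol (93.3%), with 5 matches in Mvk, 4 each in Hmgcs1 and Nsdhl, 2 in Idi1 and 1 in Sc5d. Of the fatty acid synthesis genes 1 of 4 held it, Fasn. Among the genes that fell and had a window, 3 of 4 held it, and Acaca held 0 matches to any of the motifs searched. Of those that rose and had a window, 2 of 2 held it, Insig1 and Lipa. Over all listed genes with a window it was 22 of 27 (81.5%). Over all promoters the share was 41.06% of 27025 genes. TCACNCCAC was found in 1 of 27 listed genes, against 1.44% of all genes. AGATAA was found in 2 of them, Insig2 and Npc2, against 12.7% of all genes, and CACGTG in 5 against 8.09%. A match describes letters in these windows and says nothing about binding in these cells, and genes with several windows had more chances of a match.

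Where a gene had several tested probe sets, the brightest stands for it. Signals are linear intensities on the authors' scale, and log2 differences are Gata6-KO minus Gata6-WT on the log2(signal + 16) scale, which understates the change of low signals. A gene was called at an adjusted p under 0.05 in limma over all 27022 tested probe sets. All 33 members passed the filter on low signals. Of them 6 were lower in Gata6-KO (18.2%), beside 7.46% of all 12511 tested genes, and 3 were higher (9.09%), beside 5.61% of all. The lower ones were Idi1, Fdft1 and Sc5d of sterol synthesis, the sterol carrier Stard4, and Fasn and Acaca of fatty acid synthesis, and the higher ones were Insig1, Npc1 and Lipa. The median log2 difference was -0.19 over the members and -0.04 over all tested genes. In 11 members the highest Gata6-KO array was under the lowest Gata6-WT array, beside 19.4% of all tested genes, and in 4 members the lowest Gata6-KO array was over the highest Gata6-WT array, beside 15.0%. For any single gene such a separation has an exact two-sided permutation p of 0.1, the smallest that 3 against 3 arrays allow.

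**Figure D1:**
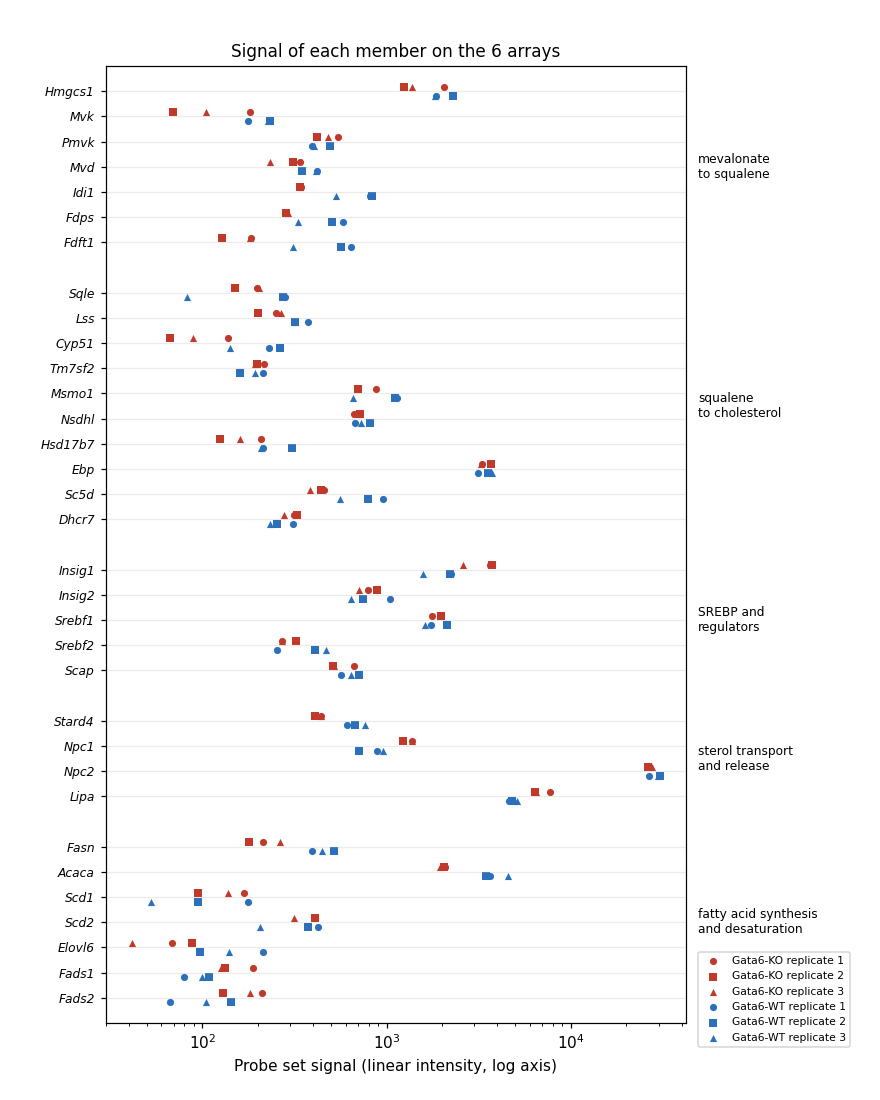
Signal of each of the 33 members (rows, by role) on the 3 Gata6-KO arrays (red) and the 3 Gata6-WT arrays (blue), with a marker shape for each replicate number, on a log axis of linear intensity. Points are to be compared within a gene, since probe sets differ in brightness; for Acaca the Gata6-KO arrays sit at 1947 to 2069 and the Gata6-WT arrays at 3473 to 4571.

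**Figure D2:**
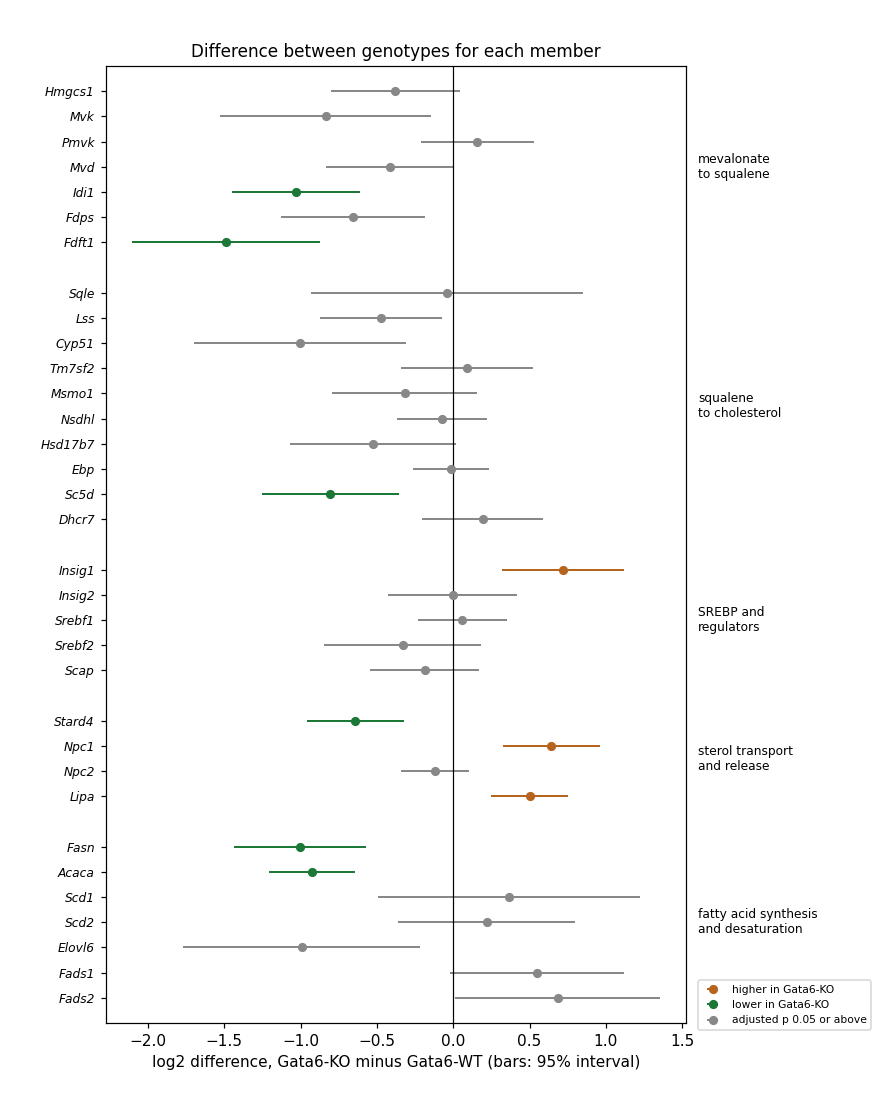
Log2 difference of each member, Gata6-KO minus Gata6-WT, with its 95% interval; green marks the 6 genes called lower, brown the 3 called higher and grey the 24 others. The differences run from -1.49 for Fdft1 to 0.72 for Insig1.

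In the first stretch of the sterol path, from acetyl units to squalene, 2 of 7 measured genes fell (28.6%, beside 7.46% of all tested genes) and 0 rose, with a median log2 difference of -0.66. Fdft1 encodes squalene synthase, which joins a pair of farnesyl diphosphates and commits them to sterols. Its signal was 183.3, 127.2 and 181.7 in Gata6-KO replicates 1, 2 and 3, against 642, 565 and 310 in Gata6-WT replicates 1, 2 and 3. Every Gata6-KO array lay below every Gata6-WT array, and the Gata6-WT replicate 3 was the nearest to them. The gene fell 2.81-fold (log2 -1.49 ± 0.27 SE, adjusted p = 0.0082), with differences of -1.72 in the replicates 1 and -1.37 in the replicates 2 and 3. This probe set belongs to the array's _x_at class, whose probes can match other transcripts, and its partners varied. One with a signal of 174.5 ± 52.3 in Gata6-KO and 312.6 ± 65.0 in Gata6-WT differed by -0.80 (adjusted p = 0.069), and a dim one, at 99.0 ± 53.1 and 48.6 ± 21.6, by 0.79 (adjusted p = 0.30) (SD, n = 3 each). With the mean of all its tested probe sets, Fdft1 stood at -0.50 (adjusted p = 0.29).

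Idi1 encodes the isomerase that makes dimethylallyl diphosphate, the starter unit of isoprenoid chains. Its signal was nearly the same on the 3 Gata6-KO arrays, at 344, 338 and 341, against 814, 835 and 531 in Gata6-WT, and the groups did not overlap. It fell 2.04-fold (log2 -1.03 ± 0.19, adjusted p = 0.0077), and its other probe set fell alike (log2 -1.08 ± 0.23, adjusted p = 0.015). The difference was -1.21 in the replicates 1 and -0.94 in the replicates 2 and 3. Fdps, whose product farnesyl diphosphate synthase builds on those units just before squalene synthase, had 282, 287 and 290.3 in Gata6-KO and 580, 506 and 330.1 in Gata6-WT. These groups were apart too, but the difference of -0.66 ± 0.21 did not pass (adjusted p = 0.082). It was -1.003 in the replicates 1 and -0.48 in the replicates 2 and 3, and it passed without Gata6-WT replicate 3, at -0.88.

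The earlier enzymes were less separated. Hmgcs1, the HMG-CoA synthase gene, had 2051, 1244 and 1368 in Gata6-KO against 1845, 2304 and 1826 in Gata6-WT, with Gata6-KO replicate 1 inside the Gata6-WT range (log2 -0.38 ± 0.19, adjusted p = 0.25). Its 3 other tested probe sets ran from -0.30 to -0.14. Mvk, mevalonate kinase, had 181.1, 69.8 and 105.0 in Gata6-KO and 177.3, 232.1 and 226.8 in Gata6-WT. Here also the replicates 1 were level, and the difference of -0.84 ± 0.31 did not pass (adjusted p = 0.12), while a second probe set stood at 0.49 ± 0.54. Without Gata6-KO replicate 1 the Mvk difference passed, at -1.15. Mvd, mevalonate diphosphate decarboxylase, differed by -0.41 (95% interval -0.83 to 0.01) with groups that did not overlap. At a second Mvd probe set the groups overlapped, with a difference of -0.15 (adjusted p = 0.76). Pmvk, phosphomevalonate kinase, was the 1 gene of this stretch with a difference above 0, at 0.16 (-0.21 to 0.53).

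From squalene to cholesterol 1 of 10 genes fell (beside 7.46% of all tested genes) and 0 rose, with a median log2 difference of -0.20. Sc5d encodes the desaturase that adds the double bond at carbon 5 of the sterol ring. It had 456, 440 and 382 in Gata6-KO against 959, 798 and 559 in Gata6-WT, with no overlap, and fell 1.75-fold (log2 -0.80 ± 0.20, adjusted p = 0.031). A second probe set of Sc5d differed by -0.83 (adjusted p = 0.076) and a dimmer one by 0.12 (adjusted p = 0.78). Leaving out any 1 array other than Gata6-WT replicate 3 ended the Sc5d call, at log2 differences of -0.85 to -0.63, and without that replicate it was -1.02. The difference was -1.05 in the replicates 1 and -0.68 in the replicates 2 and 3. The mean of its probe sets gave -0.51 (adjusted p = 0.096).

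Cyp51, which removes the methyl group at carbon 14 of lanosterol, had 137.6, 67.0 and 89.5 in Gata6-KO against 229.4, 264.1 and 141.5 in Gata6-WT. The groups were apart by a narrow gap, and the difference of -1.003 ± 0.31 did not pass (adjusted p = 0.072). It passed when Gata6-KO replicate 1 or Gata6-WT replicate 3 was left out, with log2 differences of -1.24 and -1.25. At a second Cyp51 probe set the groups overlapped, with a difference of -0.53 (adjusted p = 0.43). Lss, lanosterol synthase, which closes the ring, had 250.01, 201.6 and 267 in Gata6-KO and 376, 319.1 and 318.8 in Gata6-WT. Those groups did not overlap, at a difference of -0.47 ± 0.18 (adjusted p = 0.13), and a second Lss probe set gave -0.87 (adjusted p = 0.088).

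The other 7 genes of this stretch had overlapping groups. Sqle, squalene epoxidase, had 198.3, 149.8 and 204.4 in Gata6-KO but 282, 275 and 82.4 in Gata6-WT, so that 2 Gata6-WT arrays lay above and 1 below all Gata6-KO arrays (log2 -0.04, 95% interval -0.93 to 0.85), with -0.48 in the replicates 1 and 0.18 in the replicates 2 and 3. Msmo1, the sterol C4 methyl oxidase gene, showed the same order, with 873, 705 and 692 in Gata6-KO and 1134, 1117 and 660 in Gata6-WT (-0.32, -0.79 to 0.16). Hsd17b7, a ketosteroid reductase, stood at -0.53 (-1.07 to 0.02), with -0.03 in the replicates 1 and -0.77 in the replicates 2 and 3. Its other tested probe sets ran from -0.64 to -0.03. Nsdhl, which acts in the same demethylation, stood at -0.07 (-0.37 to 0.22). Ebp, the sterol isomerase gene, was the most tightly bounded of the stretch at -0.02 (-0.27 to 0.24). Tm7sf2, a sterol C14 reductase, and Dhcr7, which performs the last reduction of one branch, had differences of 0.09 (-0.34 to 0.52) and 0.19 (-0.20 to 0.59).

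The arrays of a genotype did not hold these genes at one level. Gata6-WT replicate 3 was the lowest Gata6-WT array for 11 of 17 sterol synthesis genes (64.7%), beside 33.3% of all tested genes. Against the mean of Gata6-WT replicates 1 and 2 its log2 difference was -1.58 for Sqle, -0.92 for Fdft1, -0.76 for Msmo1, -0.74 for Cyp51, -0.69 for Fdps, -0.63 for Sc5d and -0.62 for Idi1. These were the most negative of the 17, and the others ran up to 0.16 for Ebp and 0.15 for Mvk. The median of this shift was -0.17 over the genes up to squalene, -0.26 over those from squalene to cholesterol and 0.03 over all tested genes. Gata6-KO replicate 1 was the highest Gata6-KO array for 11 of the 17 (64.7%), beside 35.6% of all tested genes. It was also the array with the highest signal of the monocyte receptor gene Ccr2, at 9632 against 2401 and 1740 in Gata6-KO replicates 2 and 3. It was the male-type Gata6-KO array as well. The male-type Gata6-WT replicate 1 was the highest Gata6-WT array for 9 of the 17 (52.9%), beside 31.1% of all tested genes. The part of Ccr2-expressing cells and of sex type in the sterol values was not tested.

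**Figure D3:**
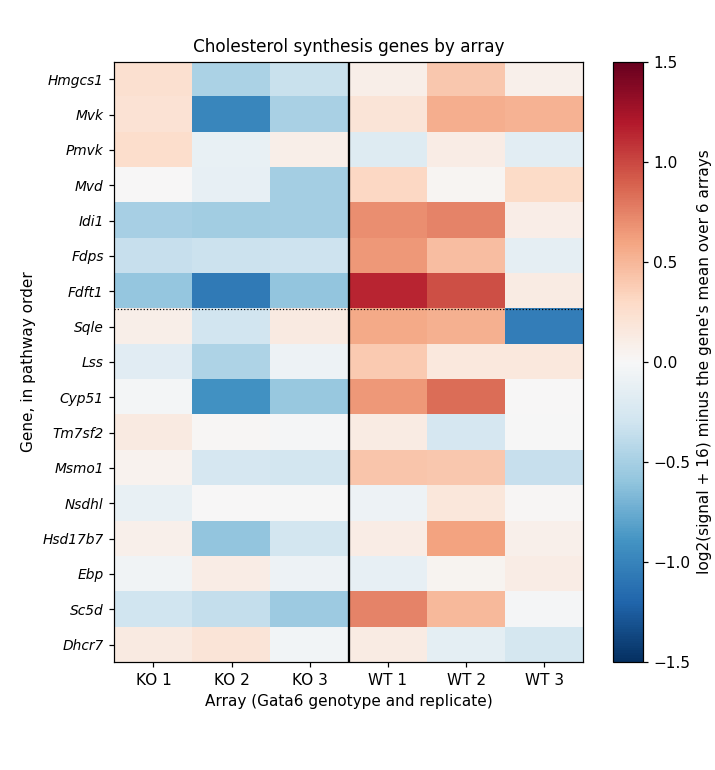
Log2(signal + 16) of 17 sterol synthesis genes in pathway order (rows) on the Gata6-KO arrays 1 to 3 and the Gata6-WT arrays 1 to 3 (columns), each minus the gene's mean over the 6 arrays; red is above and blue below that mean, and the dotted line parts the steps before and after squalene. The called genes Idi1, Fdft1 and Sc5d are below their mean on all Gata6-KO arrays, and so are Fdps, Lss and Cyp51, which were not called. Gata6-WT replicate 3 is paler than Gata6-WT replicates 1 and 2 or blue for many genes, with Sqle the deepest.

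Of the SREBP factors and their regulators, 1 of 5 rose (beside 5.61% of all tested genes) and 0 fell. Insig1, whose product keeps SCAP and SREBP in the endoplasmic reticulum and whose gene is itself a known SREBP target, had 3638, 3728 and 2608 in Gata6-KO against 2234, 2204 and 1587 in Gata6-WT. All Gata6-KO arrays lay above all Gata6-WT arrays, with replicate 3 the lowest of each genotype. Insig1 rose 1.65-fold (log2 0.72 ± 0.18, adjusted p = 0.031), and by a log2 difference of 0.70 in the replicates 1 and 0.73 in the replicates 2 and 3. The call was lost in 4 of the 6 fits that left out 1 array, where the log2 difference stayed between 0.56 and 0.89 over all 6.

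The remaining regulators had overlapping groups. Srebf1 had 1769, 1974 and 1943 in Gata6-KO and 1743, 2129 and 1614 in Gata6-WT, a difference of 0.06 (95% interval -0.23 to 0.35). Srebf2 had 272, 323 and 271 in Gata6-KO and 253.8, 409 and 471 in Gata6-WT (-0.33, -0.85 to 0.18), with a similar -0.31 at its second probe set. Scap stood at -0.19 (-0.54 to 0.17). The 3 probe sets of Insig2, the second INSIG gene, ran from -0.00 to 0.24 with adjusted p of 0.46 or more, and the brightest stood at -0.40 in the replicates 1 and 0.19 in the replicates 2 and 3. A change of SREBP activity by cleavage leaves no direct trace in these mRNA values.

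Genes of sterol movement split by direction, with 2 of 4 measured members higher and 1 lower, beside 5.61% and 7.46% of all tested genes. Stard4 encodes a cytosolic carrier that moves cholesterol between membranes. It had 442, 407 and 440 in Gata6-KO against 610, 675 and 760 in Gata6-WT, clear of each other, and fell 1.56-fold (log2 -0.64 ± 0.14, adjusted p = 0.020), with -0.45 in the replicates 1 and -0.74 in the replicates 2 and 3. Its other probe sets stood at -0.22 and -0.41 without passing (adjusted p = 0.47 and 0.29). The Stard4 call was kept in 1 of 6 fits that left out 1 array, the one without Gata6-WT replicate 1, with log2 differences of -0.72 to -0.56 over all 6, and the mean of its probe sets gave -0.43 (adjusted p = 0.062).

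Both called lysosomal genes were higher. Npc1, the membrane protein that passes cholesterol out of the lysosome, had 1378, 1236 and 1382 in Gata6-KO and 890, 713 and 959 in Gata6-WT. The lowest Gata6-KO array was above the highest Gata6-WT array, and Npc1 rose 1.56-fold (log2 0.64 ± 0.14, adjusted p = 0.019), by 0.62 in the replicates 1 and 0.65 in the replicates 2 and 3. Lipa, lysosomal acid lipase, which frees cholesterol and fatty acids from esters, had 7747, 6378 and 6480 in Gata6-KO and 4607, 4768 and 5134 in Gata6-WT. The groups were again apart, and Lipa rose 1.41-fold (log2 0.50 ± 0.11, adjusted p = 0.020), by 0.75 in the replicates 1 and 0.38 in the replicates 2 and 3.

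The Lipa probe sets all pointed up, with a second one passing at 1.23 ± 0.30 (adjusted p = 0.032) and the remaining one at 0.41 ± 0.14 (adjusted p = 0.11). For Npc1 and for Lipa the call was kept in 3 of the 6 fits that left out 1 array, and both were lost without Gata6-KO replicate 1 or Gata6-WT replicate 2. Over the 6 fits the log2 difference was 0.52 to 0.73 for Npc1 and 0.41 to 0.55 for Lipa. Npc2, the soluble lysosomal carrier that hands cholesterol to NPC1, gave an unequal picture between probe sets. The brightest had 26085, 26234 and 27479 in Gata6-KO and 26714, 30475 and 29672 in Gata6-WT (log2 -0.12, 95% interval -0.34 to 0.10), and a second bright one also stood at -0.12. A dimmer one had 2051, 2164 and 2417 in Gata6-KO against 1304, 1500 and 1529 in Gata6-WT and passed at 0.61 ± 0.12 (adjusted p = 0.012). Where these probe sets lie in the transcript was not examined.

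In fatty acid synthesis the opening enzymes fell and the desaturases did not pass, with 2 of 7 genes lower (28.6%, beside 7.46% of all tested genes) and 0 higher. Acaca encodes acetyl-CoA carboxylase 1, which makes malonyl-CoA, the building block of fatty acids. It had 2069, 2061 and 1947 in Gata6-KO against 3626, 3473 and 4571 in Gata6-WT, a gap wider than the spread of either group. It fell 1.90-fold (log2 -0.93 ± 0.13, adjusted p = 0.0016), by 0.80 in the replicates 1 and 0.99 in the replicates 2 and 3, and a dim second probe set stood at 0.13 ± 0.41 (adjusted p = 0.89), which brought the mean of both to -0.40 (adjusted p = 0.15). Fasn, fatty acid synthase, which builds palmitate from malonyl-CoA, had 213.1, 179.1 and 265.6 in Gata6-KO and 393, 521 and 446 in Gata6-WT. These did not overlap, and Fasn fell 2.01-fold (log2 -1.004 ± 0.19, adjusted p = 0.010), with -0.84 in the replicates 1 and -1.09 in the replicates 2 and 3. The calls of Acaca, Fasn, Idi1 and Fdft1 were kept in all 6 fits that each left out 1 array. In the replicates 2 and 3 alone, 4 arrays, Acaca and Fasn passed among all members, while Fdft1 stood at -1.37 (adjusted p = 0.053) and Idi1 at -0.94 (adjusted p = 0.071). Without a trend of variance on signal, Insig1, Npc1, Lipa, Sc5d and Stard4 did not pass (adjusted p = 0.054 to 0.11).

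Elovl6, which lengthens palmitate to stearate, had low signals of 68.5, 88.4 and 41.6 in Gata6-KO and 213.3, 96.7 and 139.2 in Gata6-WT. The groups lay apart, but the difference of -0.99 ± 0.35 did not pass (adjusted p = 0.11), and a second probe set gave -1.17 ± 0.57. Elovl6 stood at -1.44 in the replicates 1 and -0.77 in the replicates 2 and 3. Scd1 and Scd2, the stearoyl-CoA desaturase genes that make oleate-type fatty acids, had overlapping groups at their brightest probe sets. Scd1 stood at 169.5, 94.4 and 137.2 in Gata6-KO and 176.8, 94.5 and 52.9 in Gata6-WT (log2 0.36, 95% interval -0.50 to 1.23). Scd2 stood at 412, 408 and 314 in Gata6-KO and 424, 374 and 205.0 in Gata6-WT (0.22, -0.36 to 0.80). At the brightest probe set of each, Gata6-WT replicate 3 was the lowest of the 6 arrays, as for Sqle. At a second, dimmer Scd1 probe set all Gata6-KO arrays lay above all Gata6-WT arrays, but the difference of 0.40 did not pass (adjusted p = 0.51).

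The genes of the polyunsaturated desaturases did not pass. Fads2, delta-6 desaturase, had 210.5, 130.4 and 181.7 in Gata6-KO and 66.6, 142.8 and 104.5 in Gata6-WT (log2 0.68 ± 0.30, adjusted p = 0.19). Its difference was 1.46 in the replicates 1 and 0.30 in the replicates 2 and 3. Fads1, delta-5 desaturase, had probe sets of opposite sign, at 0.55 ± 0.25 (189.1, 132.1 and 126.1 in Gata6-KO, against 79.6, 108.3 and 100.2 in Gata6-WT) and at -0.58 ± 0.28 (94.3, 56.0 and 65.7 in Gata6-KO, against 119.3, 123.2 and 98.7 in Gata6-WT). The groups were apart at each of them, in opposite directions, and neither passed (adjusted p = 0.22 and 0.24), so no direction is given for Fads1. The first of them stood at 1.10 in the replicates 1 and 0.27 in the replicates 2 and 3.

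Of the 33 members, 19 had several tested probe sets, and 0 of these had calls in opposite directions. Only Idi1 and Lipa had several called probe sets, so opposite calls could arise in no other gene. Counted by probe set, 7 of the members' 63 tested probe sets were lower, beside 5.67% of all tested probe sets, and 5 were higher, beside 5.12%.

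**Figure D4:**
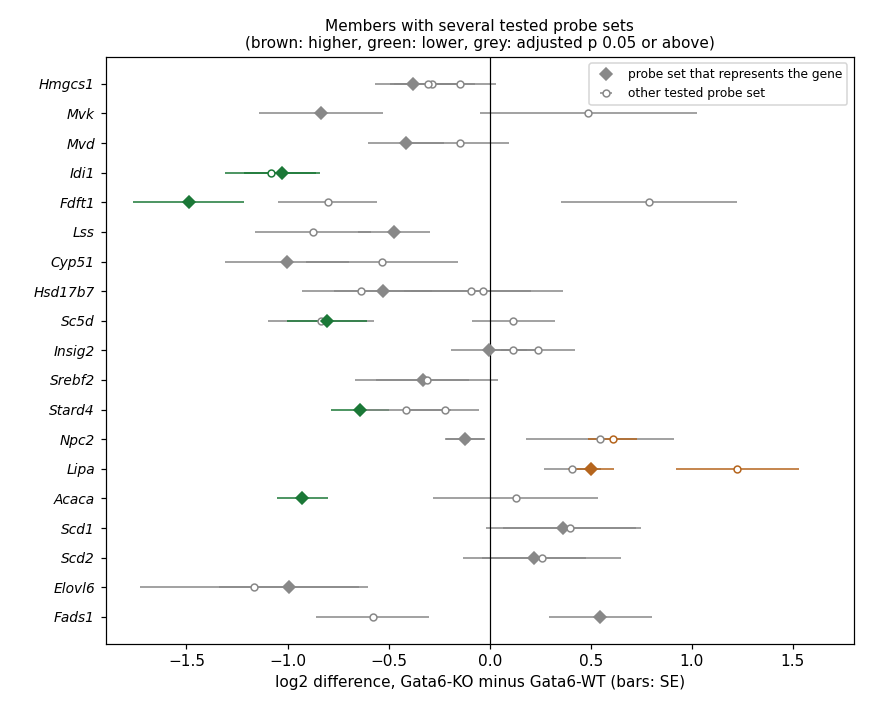
Log2 difference (Gata6-KO minus Gata6-WT, bars are SE) of every tested probe set of the 19 members with more than 1, with a diamond for the probe set that represents the gene and open circles for the others; green is lower, brown higher and grey not past the threshold. Idi1 and Lipa have further probe sets past the threshold on the same side, whereas Mvk, Fdft1, Sc5d, Insig2, Acaca, Npc2 and Fads1 have others on the opposite side of 0.

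A list of 26 further genes around these paths was also counted, of which 18 were measured and 15 tested. Of them 1 rose (6.67%, beside 5.61% of all tested genes), 1 fell (6.67%, beside 7.46%) and 13 did not pass, with a median log2 difference of -0.10. Acat1, the mitochondrial acetoacetyl-CoA thiolase that serves ketone body and isoleucine breakdown, had 4471, 5308 and 5478 in Gata6-KO against 3587, 3325 and 3158 in Gata6-WT, with no overlap. It rose 1.51-fold (log2 0.59 ± 0.12, adjusted p = 0.011), as did a second of its 3 probe sets, while the third stood at 0.15. Cyb5r3, a cytochrome b5 reductase that supplies electrons to fatty acid and sterol desaturation, had 2189, 2042 and 1944 in Gata6-KO against 3538, 3512 and 2930 in Gata6-WT. It fell 1.61-fold (log2 -0.69 ± 0.12, adjusted p = 0.0056), and by -0.65 at a second probe set, while a dimmer one stood at 0.00 (adjusted p = 0.998). With the mean of its tested probe sets Cyb5r3 stood at -0.44 and did not pass (adjusted p = 0.16), and without a trend of variance on signal Acat1 did not pass (adjusted p = 0.070).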

How the data were processed

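Resident peritoneal macrophage RNA was measured on 6 biotin-label arrays, 3 Gata6-KO and 3 Gata6-WT, grouped by the genotype label; the labels call them biological replicates, and the number of arrays limits precision. The deposited values are linear intensity signals of 45101 probe sets; the authors used MAS5 and affy per the submitters' processing notes, with no version or genome build given in the sources used here. The mean without the outer 2% of probe sets was 500 on each array, so the authors' intensity scale was common before deposit. MAS5 leaves low signals noisy. The array annotation gave 1 symbol to 34958 probe sets, several to 932 and none to 9211; those with several were tested but not named.

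Control probe sets (64) were dropped, and signals were taken as log2(signal + 16). Probe sets with a mean above the 40th percentile (5.99, a signal of 47.5) were tested, 27022 in all. The fit used limma 3.58.1 in R 4.3.3 (lmFit, then eBayes with a variance trend). The p-values were two-sided and adjusted by Benjamini-Hochberg across all tested probe sets. They set each difference against the spread between these pools, with each probe set's variance drawn toward the trend over all tested probe sets. The brightest tested probe set stood for a gene. In simulated data of 27022 probe sets, 50 were changed by each of log2 0.5, 1, 2 and 3. The fit recovered 4%, 36%, 66% and 86% of them, with 3 false calls among 99. The real arrays gave 1384 probe sets called higher and 1532 lower. With far fewer changed probe sets the adjustment was stricter in the simulation, so these shares do not give the power of the real comparison. The fit was repeated with other offsets, filters, scalings and variance models, weights per array, a replicate block, each array left out, replicates 2 and 3 only, and probe sets averaged per gene. Figures used matplotlib 3.10.9 in Python 3.11.15. Members, lists and tests were chosen with earlier results of these data known; every member may be named, and of the further lipid genes those past the threshold.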

Additional observations from a re-analysis of the deposited data

Results flagged for a closer look

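Of the 33 members, 4 were flagged. In each, the male-type pair of arrays (the replicates 1) and the female-type arrays (the replicates 2 and 3) differed in sign. The flag also required that the Gata6-KO and Gata6-WT arrays of the female type did not overlap. Sqle, Insig2, Scd1, Scd2 and Ebp differed in sign too, but their female-type arrays overlapped. The share of all tested genes that would be flagged was not counted, so the 4 are not read as a result about the members. For Mvk and Srebf2 the replicates 1 were nearly level. The log2 differences in the replicates 1 and in the replicates 2 and 3 were 0.15 and -0.65 for Hmgcs1, 0.028 and -1.27 for Mvk, 0.0929 and -0.54 for Srebf2, and 0.22 and -0.39 for Scap. The limma interaction of type and genotype over all tested probe sets had an adjusted p of 0.9998 or more for each of the 33 members, and the test rests on 1 male-type array of each genotype. Among the members the smallest unadjusted p of the interaction was 0.030, for Hmgcs1.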

How the results depend on the processing

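Calls of members were the same 3 higher and 6 lower genes with offsets of 1 and 64, without a filter or with one at the 60th percentile (30 members tested), after quantile normalization and both median scalings (the one over tested probe sets was chosen after seeing the data), and with the replicate block. The block gave 1500 probe sets higher and 1576 lower, and a median of -0.19 for the members. The labels state no pairing, so the numbers were not taken as pairs in the reported fit. Deviations of same-numbered arrays correlated at 0.13, 0.07 and 0.07, and each of the 6 arrays correlated best with its own number. Without the variance trend 655 probe sets were higher and 804 lower, and 0 members were higher (Idi1, Fdft1, Fasn and Acaca lower). In replicates 2 and 3 alone the counts were 772 and 843, with 0 members higher and 2 lower, Acaca and Fasn, on 4 arrays. Probe sets averaged per gene left 2 lower, Fasn and Idi1, and array weights moved the members' median to -0.30 and added Cyp51 and Fdps to the lower genes. With 1 array left out, 817 to 1238 probe sets were higher and 926 to 1227 lower, with 0 to 2 members higher and 4 to 7 lower; the 0 arose without Gata6-KO replicate 1 or Gata6-WT replicate 2. Some differences that never passed changed sign. Insig2 became 0.0328 (quantile), 0.0044 (weights), 0.0512 (median over tested), 0.12 (mean of probe sets) and 0.19 (replicates 2 and 3). Sqle became 0.0139 (median over tested) and 0.18 (replicates 2 and 3), Ebp 0.0404 (median over tested), Srebf1 -0.013 (weights), Fads1 -0.0153 and Npc2 0.23 (mean of probe sets). With 1 array left out, Ebp ran from -0.0829 to 0.0365, Sqle from -0.57 to 0.23, Insig2 from -0.16 to 0.19, Tm7sf2 from -0.012 to 0.18, Scd2 from -0.0815 to 0.41 and Srebf1 from -0.0249 to 0.17. The cause of these shifts was not tested.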
